A study of Mus musculus with 7 samples.

Results

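The mitochondrial genome transcripts are all rows of the deposited gene table whose chromosome is MT. They number 37 of the 54532 genes listed: 13 messenger RNA genes, 2 ribosomal RNA genes and 22 transfer RNA genes. They were read in 7 liver libraries from old C57BL/6 mice. Of these, 3 libraries came from mice labelled as on a standard diet after supplementation with MDL-800, a small molecule activator of the deacetylase SIRT6, and 4 came from control mice on the standard diet alone. The labels give no dose, exact age or sex, and do not say that each library is a separate animal, so the p-values below measure the spread between these libraries, which may be technical. Livers were lysed directly and cDNA was amplified with a low-input kit, sheared and sequenced without strand information. Values are FPKM, in which reads are divided by gene length and by a library denominator set by the authors.

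The mitochondrial genome is a small circle that is transcribed from both strands as long precursors. Transfer RNA genes sit between most of the other genes, and their excision releases the ribosomal RNAs of the mitochondrial ribosome and the messengers, most of which are then polyadenylated. The messengers encode core subunits of respiratory complexes I, III and IV and of ATP synthase, while all other subunits and the transcription machinery come from the nucleus. In liver these complexes supply the ATP used for gluconeogenesis, urea synthesis and lipid metabolism. Because the libraries carry no strand information, transcripts of one strand cannot be told apart from antisense RNA of the other.

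The nuclear genome holds copies of mitochondrial DNA. On chromosome 1, 7 annotated pseudogenes lie one after another between 24611535 and 24616197 (GRCm38, minus strand). They keep the order of positions 6381 to 11042 of the mitochondrial genome and nearly the same spacing (4663 against 4662 bases). They are Gm29216, Gm28661, Gm10925, Gm28437, Gm28438, Gm10222 and Gm28439, which copy stretches of mt-Co1, mt-Co2, mt-Atp6, mt-Co3, mt-Nd3, mt-Nd4l and mt-Nd4. The following 60-base stretches, taken from GENCODE M21 transcripts, show how close a copy comes inside that segment and how it differs outside it. Capitals mark the bases at which the gene and its copy differ.
mt-Atp6, MT 7927 to 7986: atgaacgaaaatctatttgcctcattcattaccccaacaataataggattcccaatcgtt
Gm10925, chr1:24614592-24614651, minus strand: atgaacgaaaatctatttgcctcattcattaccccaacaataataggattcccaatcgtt
mt-Nd3, MT 9459 to 9518: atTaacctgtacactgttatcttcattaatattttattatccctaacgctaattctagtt
Gm28438, chr1:24613060-24613119, minus strand: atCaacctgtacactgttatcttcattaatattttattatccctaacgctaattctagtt
mt-Cytb, MT 14151 to 14210: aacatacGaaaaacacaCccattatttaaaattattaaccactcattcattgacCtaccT
Gm11410, chr4:80003995-80004054, plus strand: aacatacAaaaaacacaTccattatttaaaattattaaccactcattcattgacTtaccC

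The copies of mt-Co2, mt-Atp6, mt-Co3 and mt-Nd4l had 0 mismatches over 681, 678, 783 and 294 aligned bases. Gm28439 had 0 mismatches to the first 876 bases of mt-Nd4. Gm28438 had 1 mismatch to mt-Nd3 over 345 bases, the base in capitals above. Gm29216 had 6 mismatches to the last 492 bases of mt-Co1, all within the first 13 bases of the copy. For mt-Cytb, by contrast, Gm11410 on chromosome 4 had 82 mismatches over 1143 bases. A 50-base read from most of mt-Co2, mt-Atp6, mt-Co3, mt-Nd3 or mt-Nd4l could therefore be placed equally well in the nuclear copy, and the sources used here do not say how the authors treated such reads.

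Transfer RNAs differ strongly in read number although their lengths run only from 59 to 75 bases. The sequences below are those of the most read transfer RNA and its almost unread neighbour on the other strand (mt-Tp and mt-Tt), the next highest transfer RNAs on the minus strand (mt-Te and mt-Tc), and those that the comparisons below turn on (mt-Tg, mt-Tr and mt-Tm). Capitals mark the anticodon.
mt-Tp, MT 15356 to 15422, minus strand, proline: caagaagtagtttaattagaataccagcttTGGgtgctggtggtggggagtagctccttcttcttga
mt-Tt, MT 15289 to 15355, plus strand, threonine: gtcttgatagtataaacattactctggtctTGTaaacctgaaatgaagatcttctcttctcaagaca
mt-Te, MT 14071 to 14139, minus strand, glutamate: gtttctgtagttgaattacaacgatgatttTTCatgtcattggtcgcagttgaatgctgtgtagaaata
mt-Tc, MT 5192 to 5257, minus strand, cysteine: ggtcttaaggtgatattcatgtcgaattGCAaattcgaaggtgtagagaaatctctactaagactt
mt-Tg, MT 9391 to 9458, plus strand, glycine: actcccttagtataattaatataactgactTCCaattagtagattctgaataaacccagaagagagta
mt-Tr, MT 9808 to 9875, plus strand, arginine: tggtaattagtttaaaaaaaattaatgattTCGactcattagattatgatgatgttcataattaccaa
mt-Tm, MT 3845 to 3913, plus strand, methionine: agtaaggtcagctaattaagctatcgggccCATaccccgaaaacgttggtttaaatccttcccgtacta

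Messengers made up almost all of the mitochondrial reads. How well the cDNA preparation captured each RNA class was not measured, so shares and levels of reads are not amounts of RNA in the cell. Mitochondrial genes together took 4.88, 5.92 and 4.79 percent of reads in the MDL-800 livers and 5.88, 4.64, 5.09 and 5.38 percent in the control livers. The mean was 5.20 ± 0.630 percent in MDL-800 livers (SD, n = 3) and 5.25 ± 0.519 percent in control livers (SD, n = 4), and the groups overlapped. Of the mitochondrial reads, 96.0 to 98.4 percent were from messengers, 1.19 to 3.39 percent from the ribosomal RNAs and 0.322 to 0.610 percent from transfer RNAs. The messengers mt-Co1, mt-Cytb, mt-Nd1, mt-Nd2 and mt-Nd4 alone held 85.4 to 89.3 percent of them.

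Ribosomal RNA took 0.0645, 0.149 and 0.0781 percent of all reads in MDL-800 livers, against 0.199, 0.0627, 0.0607 and 0.101 percent in control livers. Transfer RNA took 0.0197, 0.0300 and 0.0210 percent in MDL-800 livers, against 0.0358, 0.0149, 0.0183 and 0.0256 percent in control livers. In both classes the highest library was control 1 and the next was MDL-800 2. The groups overlapped in both classes.

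**Figure D1:**
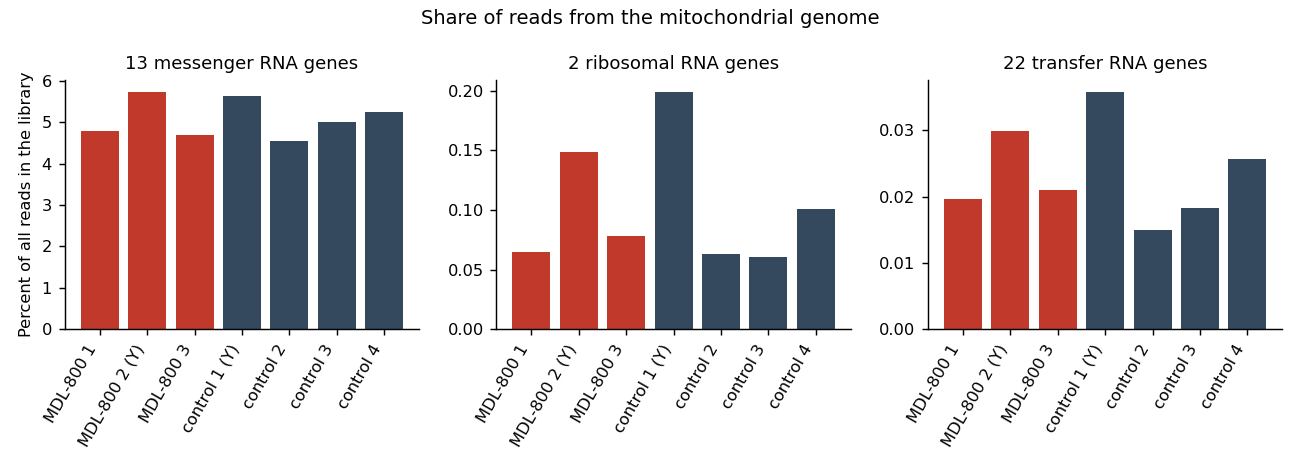
Percent of all reads in each library (y axis, a separate linear scale in each panel) from the 13 messenger, 2 ribosomal and 22 transfer RNA genes; each bar is 1 library, MDL-800 in red and control in dark blue, and (Y) marks the libraries with reads from Y-linked genes. The ribosomal RNA share was 0.149 percent in MDL-800 2 and 0.199 percent in control 1, against 0.0607 to 0.101 percent in the other 5 libraries.

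mt-Co1 (ENSMUSG00000064351, MT 5328 to 6872), the catalytic subunit of cytochrome c oxidase, was the highest messenger and ranked 2 among all genes by mean FPKM. It was at 12814, 19543 and 13336 FPKM in MDL-800 livers and 18810, 11634, 16869 and 15752 FPKM in control livers. mt-Cytb (MT 14145 to 15288), the cytochrome b of complex III, followed at 8148, 12717 and 7945 FPKM in MDL-800 livers and 11351, 8422, 10959 and 10042 FPKM in control livers. For both messengers MDL-800 2 was the highest library, and the groups overlapped. The high complex I messengers mt-Nd1 and mt-Nd2, which encode core membrane subunits, averaged 6674 and 6403 FPKM over the 7 libraries, with library values from 4690 to 7734 and from 4408 to 8576 FPKM. mt-Nd4, another membrane subunit of complex I, ran from 3144 to 4767 FPKM.

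mt-Nd6 (MT 13552 to 14070) is the only messenger of the minus strand, and its end overlaps that of mt-Nd5 on the plus strand by 14 bases. It was at 2088, 2558 and 1823 FPKM in MDL-800 livers and 2037, 1672, 2214 and 3096 FPKM in control livers. mt-Nd5 was at 2194, 2699 and 1943 FPKM in MDL-800 livers and 2584, 1765, 2224 and 3285 FPKM in control livers. Both encode membrane subunits of complex I and were at nearly the same level per length in 6 of the 7 libraries, with control 1 as the library in which mt-Nd6 was lowest relative to mt-Nd5. The ratio of mt-Nd6 to mt-Nd5 was 0.951, 0.948 and 0.938 in MDL-800 livers and 0.788, 0.948, 0.996 and 0.942 in control livers. Reads from the mt-Nd6 region cannot be told apart from antisense RNA of the plus strand precursor.

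The messengers inside the copied segment stood far below the rest. mt-Co2, mt-Atp8, mt-Atp6, mt-Co3, mt-Nd3 and mt-Nd4l had means of 7.09 to 238 FPKM, with a median of 150.25 FPKM. The 5 messengers wholly outside it (mt-Nd1, mt-Nd2, mt-Nd5, mt-Nd6 and mt-Cytb) had means of 2213 to 9941 FPKM, with a median of 6403 FPKM. No library value of the inside messengers exceeded 413 FPKM, and no library value of the outside messengers was under 1672 FPKM. mt-Co1 and mt-Nd4, which lie partly inside, were at means of 15537 and 3890 FPKM, and the share of their 50-base windows found identical in a nuclear transcript was 51.1 and 62.2 percent. That share was 97.99 to 100 percent for mt-Co2, mt-Atp6, mt-Co3, mt-Nd3 and mt-Nd4l, and 0 to 8.19 percent for the messengers outside. The part of shared sequence in these low levels was not tested.

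**Figure D2:**
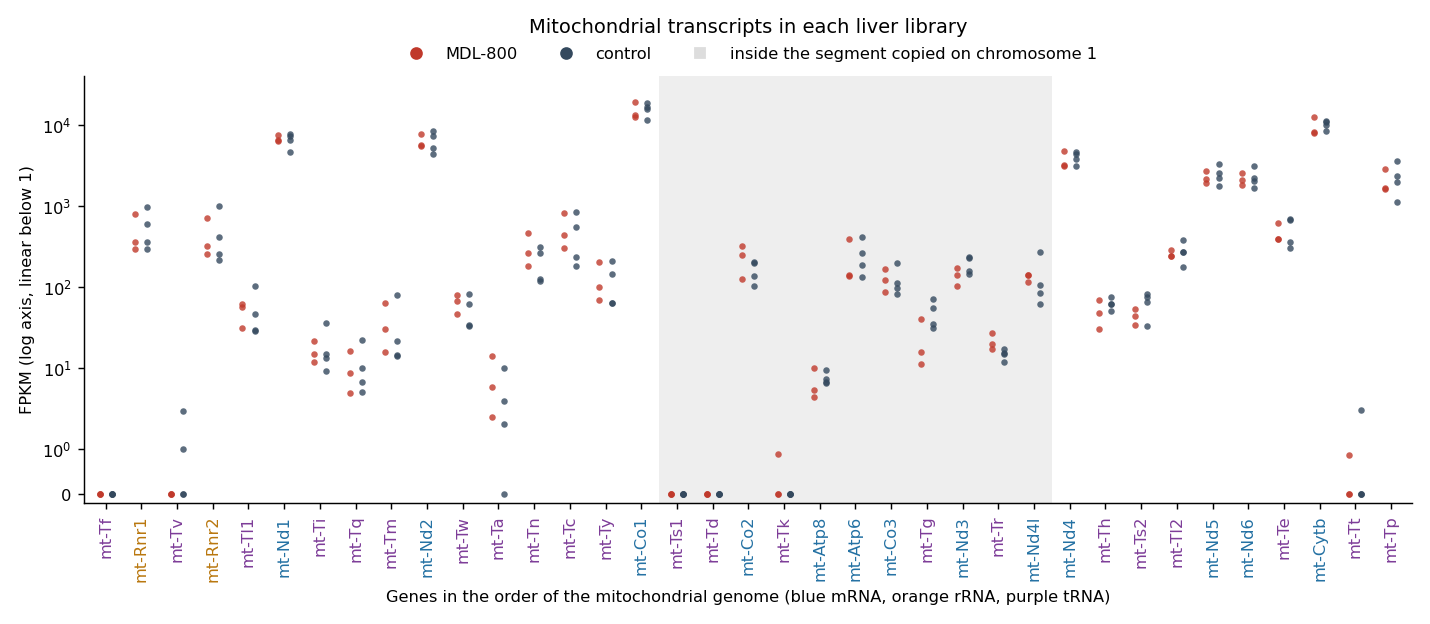
FPKM of the 37 genes in the order of the mitochondrial genome (y axis logarithmic above 1 FPKM and linear below it); each point is 1 library, MDL-800 in red to the left and control in dark blue to the right. The 6 messengers in the grey segment copied on chromosome 1 lie between 4.42 and 413 FPKM, below every point of the 7 other messengers.

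**Figure D3:**
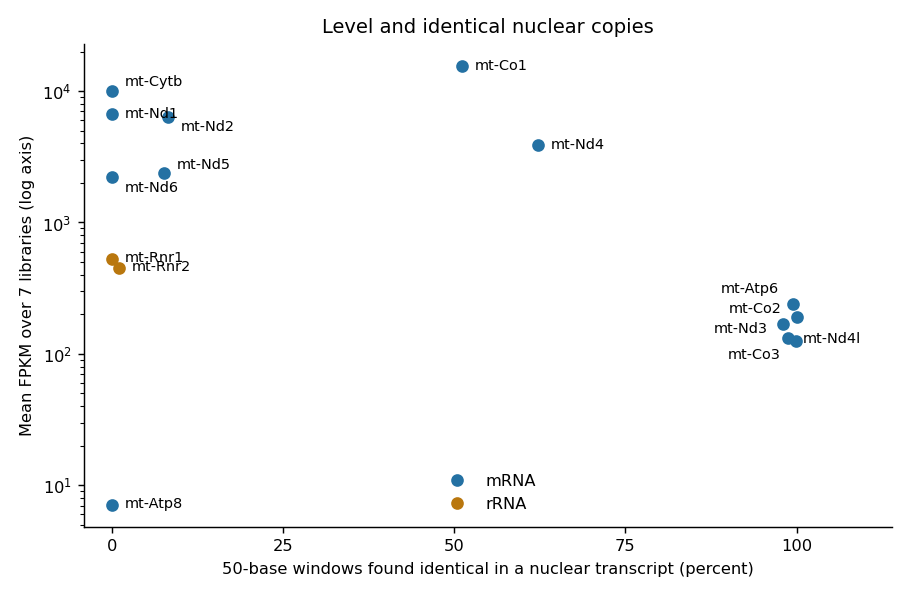
Mean FPKM over the 7 libraries (y axis, logarithmic) against the percent of 50-base windows of each messenger (blue) and ribosomal RNA (orange) that are found identical in another annotated transcript (x axis). The 5 messengers at 97.99 percent or more have means of 125 to 238 FPKM, and mt-Atp8 lies at 7.09 FPKM with 0 percent. The 43 bases of mt-Atp8 that are copied in Gm10925 are shorter than a window. Nuclear DNA outside annotated transcripts was not scanned.

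mt-Atp8 does not follow the other messengers of the segment. It encodes a small ATP synthase subunit, overlaps mt-Atp6 by 43 bases, and falls inside the copied segment by spacing. Its last 43 bases, those shared with mt-Atp6, are identical in Gm10925, but they are shorter than the 50-base window of the scan. Only annotated transcripts were scanned, so the scan does not show whether the chromosome 1 DNA holds a copy of the rest of mt-Atp8. It had 35, 14 and 19 reads in MDL-800 livers and 22, 26, 27 and 20 reads in control livers, equal to 9.93, 4.42 and 5.31 FPKM in MDL-800 livers and 7.44, 6.55, 9.35 and 6.65 FPKM in control livers. It was the lowest messenger by mean, and groups overlapped on these few reads.

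The remaining messengers of the segment varied between libraries without a common order. mt-Co2, the copper-binding subunit of cytochrome c oxidase, was at 319, 252 and 125 FPKM in MDL-800 livers and 204, 102, 138 and 199 FPKM in control livers. mt-Co3, a further core subunit of that oxidase, was at 87.7, 124 and 167 FPKM in MDL-800 livers and 201, 82.2, 112 and 97.7 FPKM in control livers. The highest library was MDL-800 1 for mt-Co2 and control 1 for mt-Co3. mt-Atp6, the proton channel subunit of ATP synthase, was at 138, 394 and 139.8 FPKM in MDL-800 livers and 263, 133, 413 and 187 FPKM in control livers. For mt-Atp6, MDL-800 2 and control 3 stood above the other libraries. mt-Nd3 and mt-Nd4l, small membrane subunits of complex I, ran from 103 to 234 and from 62.3 to 272 FPKM, and both were highest in control 1.

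The nuclear copies themselves were listed at lower levels than the genes they copy, per length. Gm10925, the copy of mt-Atp6, was the highest, at 101.2, 141.2 and 99.7 FPKM in MDL-800 livers and 176, 91.9, 134 and 111 FPKM in control livers. The means of the 7 copies ran from 20.3 to 122 FPKM, and mt-Co2, mt-Atp6, mt-Co3, mt-Nd3 and mt-Nd4l were at 1.95 to 8.30 times the level of their copy. With sequences this close, the level of a gene and that of its copy cannot be told apart.

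The ribosomal RNAs had fewer reads per length than every messenger wholly outside the segment, in each library. mt-Rnr1 (MT 70 to 1024), the RNA of the small mitochondrial ribosomal subunit, was at 293, 803 and 364 FPKM in MDL-800 livers and 974.8, 294.5, 362.7 and 609.9 FPKM in control livers. mt-Rnr2 (MT 1094 to 2675), the RNA of the large subunit, was at 257, 719 and 319 FPKM in MDL-800 livers and 991, 217, 258 and 411 FPKM in control livers. For both, MDL-800 2 and control 1 were the high libraries and the groups overlapped. The ratio of mt-Rnr2 to mt-Rnr1 was 0.876, 0.895 and 0.876 in MDL-800 livers, against 1.02, 0.736, 0.712 and 0.674 in control livers.

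Transfer RNA genes ranged from 0 reads to levels near those of messengers. mt-Tp, the proline transfer RNA bordering the noncoding control region, was the highest, at 1609.6, 2885 and 1654 FPKM in MDL-800 livers and 3632, 1112, 1996 and 2385 FPKM in control livers, from 1449 to 3530 reads a library. Its plus strand neighbour mt-Tt had 1, 0 and 0 reads in MDL-800 livers and 0, 0, 0 and 3 reads in control livers. mt-Te, next to mt-Nd6 on the minus strand, was at 388, 623 and 388 FPKM in MDL-800 livers and 699, 302, 364 and 667 FPKM in control livers. mt-Tc was at 309, 820.04 and 439 FPKM in MDL-800 livers and 839.9, 181, 238 and 549 FPKM in control livers. mt-Tl2, a leucine transfer RNA of the plus strand, was at 245, 284 and 244 FPKM in MDL-800 livers and 382, 178, 275 and 275 FPKM in control livers. In each of these genes except mt-Tt, control 1 was the highest library, and the groups overlapped in all of them.

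Levels of transfer RNAs spread widely on both strands. On the minus strand 7 of 8 genes passed the filter of a mean of 1 FPKM or more, with means up to 2182 FPKM, and mt-Ta and mt-Tq were at only 5.47 and 10.6 FPKM. On the plus strand 9 of 14 genes passed it, with means up to 269 FPKM. mt-Tn and mt-Tc, which flank the 32-base stretch that holds the origin of light strand replication, were at means of 249 and 482 FPKM. mt-Tf, mt-Ts1 and mt-Td had 0 reads in all 7 libraries, which allows up to 3 reads in each, or 2.30 to 3.16 FPKM at a length of 67 bases. This limit covers counting error alone and not reads lost to several placements. The 6 transfer RNAs that did not pass were mt-Tf, mt-Ts1, mt-Td, mt-Tv, mt-Tk and mt-Tt. Those inside the copied segment were mt-Ts1, mt-Td, mt-Tk, mt-Tg and mt-Tr. Means of these 5 ran from 0 to 37.0 FPKM (median 0.127), against 0 to 2182 FPKM (median 55.4) for the 17 outside. The part of shared sequence in these levels was not tested. Whether reads assigned to a transfer RNA came from the mature RNA or from precursor and neighbouring sequence cannot be told apart in values per gene.

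With MDL-800, no mitochondrial transcript changed beyond the spread between libraries. The test was limma on log2(FPKM + 1) with Benjamini-Hochberg adjustment over the 11394 genes whose mean was 1 FPKM or more. It called 0 of the 31 mitochondrial transcripts tested, and 0 percent of all genes. At an unadjusted p under 0.05 it marked 2 of the 31, mt-Tg and mt-Tr, against 4.85 percent of all genes (553). limma voom on recovered reads also called 0 genes, with 651 at an unadjusted p under 0.05. The MDL-800 and control values of 0 of the 31 did not overlap, against 6.45 percent of all genes. Fold changes were above 0 for 14 and below 0 for 17, with a median of -0.05 on the log2 scale, against 0.02 over all genes tested. The median was -0.05 for the 13 messengers, of which 5 were above 0, and 0.01 for the 16 transfer RNAs, of which 8 were above 0. These directions turned with the processing: 19 were above 0 and 12 below with quantile normalization, when the messenger median was 0.06. With 1 library left out, 7 (without MDL-800 2) to 21 (without MDL-800 1 or control 1) were above 0. The 31 are those that passed the filter on the mean over all libraries, out of 37.

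mt-Co1 differed between MDL-800 and control by -0.05 on the log2 scale (SE 0.23, 95% interval -0.61 to 0.50, limma adjusted p = 0.975). mt-Nd6 differed by -0.04 (SE 0.24, limma adjusted p = 0.984), and mt-Nd1 by 0.08 (SE 0.21, limma adjusted p = 0.970). The intervals of the ribosomal RNAs were wider. mt-Rnr1 differed by -0.19 (SE 0.51, interval -1.38 to 1.01) and mt-Rnr2 by 0.00067 (SE 0.59, interval -1.40 to 1.40), with limma adjusted p-values of 0.970 and 0.99997. mt-Atp6 differed by -0.21 (SE 0.50) and mt-Atp8 by -0.23 (SE 0.25), with limma adjusted p-values of 0.970 and 0.950. The directions of mt-Co1, mt-Nd6, mt-Rnr1, mt-Rnr2 and mt-Atp6 each turned when 1 of the libraries was left out.

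The members with the smallest unadjusted p were a mixed group of both directions. mt-Tg had 47, 12 and 19 reads in MDL-800 livers and 70, 41, 53 and 35 reads in control livers, or 40.0, 11.4 and 15.9 FPKM in MDL-800 livers and 71.0, 30.99, 55.0 and 34.9 FPKM in control livers. Its highest MDL-800 library lay among the control libraries, and its fold change was -1.18 (SE 0.46, limma adjusted p = 0.950). mt-Tr had 20, 29 and 24 reads in MDL-800 livers and 17, 20, 15 and 12 reads in control livers, or 17.02, 27.4 and 20.1 FPKM in MDL-800 livers and 17.2, 15.1, 15.6 and 12.0 FPKM in control livers. The lowest MDL-800 library lay just under the highest control library, and the fold change of mt-Tr was 0.48 (SE 0.19, limma adjusted p = 0.950). mt-Tg and mt-Tr are separated on the plus strand only by mt-Nd3, whose fold change was -0.46 (SE 0.25). By position, mt-Tg, mt-Tr, mt-Nd3 and mt-Co2 lie inside the segment copied on chromosome 1. The part of shared sequence in their values was not tested. mt-Ts2, a serine transfer RNA, was at -0.49 (SE 0.33), mt-Tn at 0.58 (SE 0.46) and mt-Co2 at 0.48 (SE 0.38), all with a limma adjusted p of 0.950. All of these values miss the threshold, which does not show that the groups are alike.

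**Figure D4:**
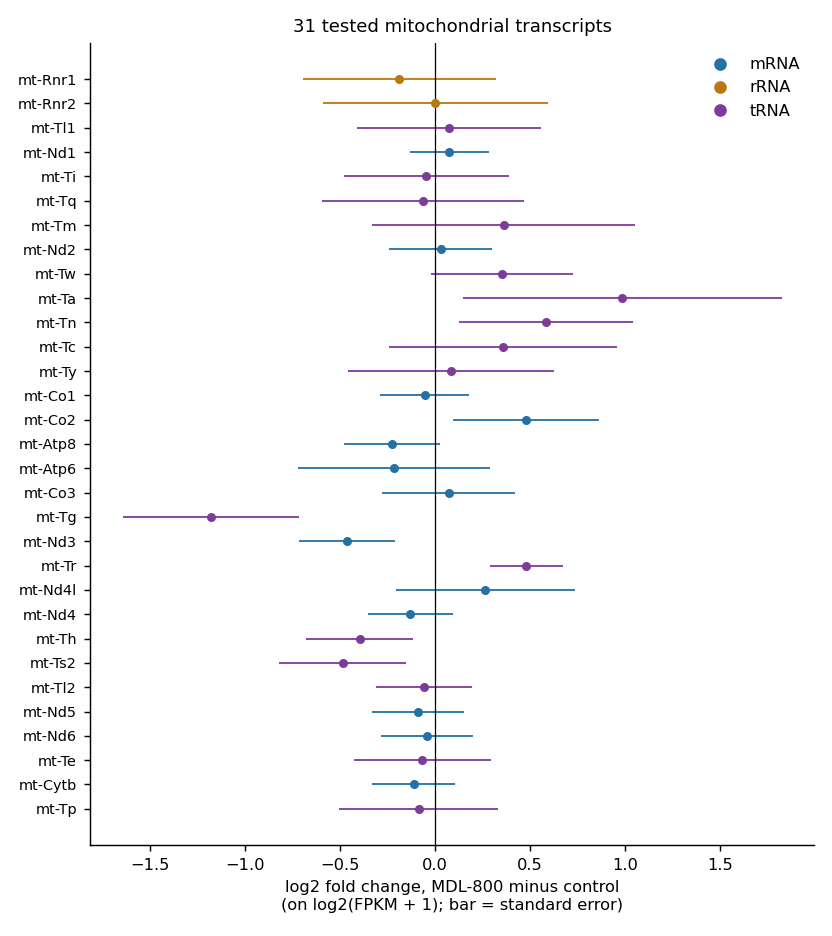
log2 fold change of each of the 31 tested transcripts, MDL-800 minus control on log2(FPKM + 1) (x axis), with its standard error as a bar, in genome order from top to bottom; messengers are blue, ribosomal RNAs orange and transfer RNAs purple. mt-Tg at -1.18 and mt-Tr at 0.48, both inside the segment copied on chromosome 1, are the points with an unadjusted p under 0.05. Of the 31, 0 pass adjustment.

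Ratios within a library do not depend on the denominator of FPKM. The ratio of mt-Rnr2 to mt-Rnr1 averaged 0.882 ± 0.0110 in MDL-800 livers (SD, n = 3) and 0.784 ± 0.157 in control livers (SD, n = 4). Its log2 difference was 0.19, which was within the spread of the control libraries (exact two-sided permutation p = 0.286, adjusted over 2 ratios to 0.571). The ratio of mt-Nd6 to mt-Nd5 averaged 0.946 ± 0.00681 in MDL-800 livers and 0.918 ± 0.0901 in control livers, a log2 difference of 0.05 (exact two-sided permutation p = 0.857, adjusted 0.857). The 35 possible assignments allow no p under 0.0286. For the ratio of mt-Rnr2 to mt-Rnr1 the groups overlapped only through control 1, at 1.02. The other control libraries, at 0.674 to 0.736, lay below the MDL-800 libraries, at 0.876 to 0.895. Without control 1 the log2 difference of this ratio was 0.32 (exact two-sided permutation p = 0.1, not adjusted). Leaving out control 1 turned the direction of the second ratio, to -0.02.

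Across libraries, the mitochondrial transcripts moved with a difference that the groups do not explain. Reads of Uty, Ddx3y, Eif2s3y and Kdm5d, all on the Y chromosome, were found in MDL-800 2 (3514 reads) and control 1 (2173 reads) and numbered 0 in the other 5 libraries, although the labels give no sex. Of the 31 tested transcripts, 18 were higher in both of these libraries than in any of the other 5, against 20.0 percent of all genes. They were 2 of 2 ribosomal RNAs, 11 of 16 transfer RNAs and 5 of 13 messengers (mt-Nd2, mt-Co1, mt-Nd4l, mt-Nd4 and mt-Cytb). Of the 31, 0 were lower in both, against 12.8 percent of all genes. By share of a library's own reads, which does not use the authors' denominator, the number was 15 of 31 (48.4 percent), against 8.44 percent of all genes.

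The size of the difference varied within each class. mt-Rnr2 averaged 855 FPKM in the libraries with Y-linked reads and 292 FPKM in the other 5, a ratio of 2.93. mt-Rnr1 averaged 889 FPKM in the libraries with Y-linked reads and 385 FPKM in the other 5, a ratio of 2.31. mt-Tm had 69 and 79 reads in MDL-800 2 and control 1, against 14 to 37 reads in the other 5, and its FPKM ratio was 3.71. mt-Tc, at 820.04 FPKM in MDL-800 2 and 839.9 FPKM in control 1, against 181 to 549 FPKM in the other 5, had a ratio of 2.42. mt-Tl2 was also higher in both of these libraries than in any of the other 5, with a smaller ratio of 1.37. Little or none of the difference was seen for mt-Tg and mt-Th, with ratios of 1.16 and 0.960. Among messengers the ratio was 2.03 for mt-Nd4l, 1.62 for mt-Atp6, 1.49 for mt-Co3 and 1.45 for mt-Nd2. It was 1.36 for mt-Co1, 1.32 for mt-Cytb, 1.17 for mt-Nd1, 1.06 for mt-Nd6 and 0.784 for mt-Atp8.

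With a term for these libraries beside treatment in the limma fit, 29 of 31 transcripts were above 0. The share of all genes above 0 was not counted for this term, so only medians are set against all genes. The median log2 difference was 0.58 over the 31, 0.45 over the messengers and 0.99 over the transfer RNAs, against 0.08 over all genes tested. With summed reads as the denominator, 27 of 31 were above 0, and the median was 0.39 over the 31, 0.26 over the messengers and -0.07 over all genes. With quantile normalization, 24 of 31 were above 0, of the messengers 8 of 13, and the median was 0.03 over the messengers, 0.70 over the transfer RNAs and 0.06 over all genes. The fit called 2 of the 31, both higher, against 1.33 percent of all genes called higher. These were mt-Rnr2, at 1.58 (SE 0.28, limma adjusted p = 0.0490), and mt-Tm, at 1.87 (SE 0.31, limma adjusted p = 0.0417). mt-Rnr1 was at 1.28 (SE 0.29, limma adjusted p = 0.0827). Whether ribosomal or transfer RNAs differed more than messengers was not tested. Nuclear genes of the respiratory chain lay on the same side in this fit: the 8 nuclear subunits listed below were all above 0, between 0.23 for Atp5b (-0.02 with quantile normalization) and 0.41 for Cox4i1, with limma calling 0 of 8. Grsf1, an RNA-binding protein of mitochondrial RNA granules named after its values were seen, was at 0.70 (SE 0.12, limma adjusted p = 0.0431), and was not called with summed reads as the denominator (limma adjusted p = 0.0936) or without MDL-800 1, MDL-800 2, MDL-800 3, control 1 or control 4 (limma adjusted p = 0.0661 to 0.499).

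These calls are not firm. With summed reads as the denominator, mt-Rnr2 was at 1.39 (limma adjusted p = 0.0501) and mt-Tm at 1.68 (limma adjusted p = 0.0559). mt-Rnr2 was no longer called without MDL-800 1, MDL-800 2, MDL-800 3, control 1 or control 3, with limma adjusted p-values of 0.144, 0.224, 0.109, 0.526 and 0.0573. mt-Tm was no longer called without MDL-800 1, MDL-800 2, control 1, control 2, control 3 or control 4, with limma adjusted p-values of 0.123, 0.162, 0.490, 0.0586, 0.0530 and 0.0543. Without MDL-800 2 or control 1 only 1 library with Y-linked reads remains, which is then assumed to vary like the others. Without control 4, mt-Rnr1 passed (limma adjusted p = 0.0294). The difference itself stayed between 1.33 and 1.80 for mt-Rnr2 and between 1.499 and 2.201 for mt-Tm when any 1 library was left out.

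**Figure D5:**
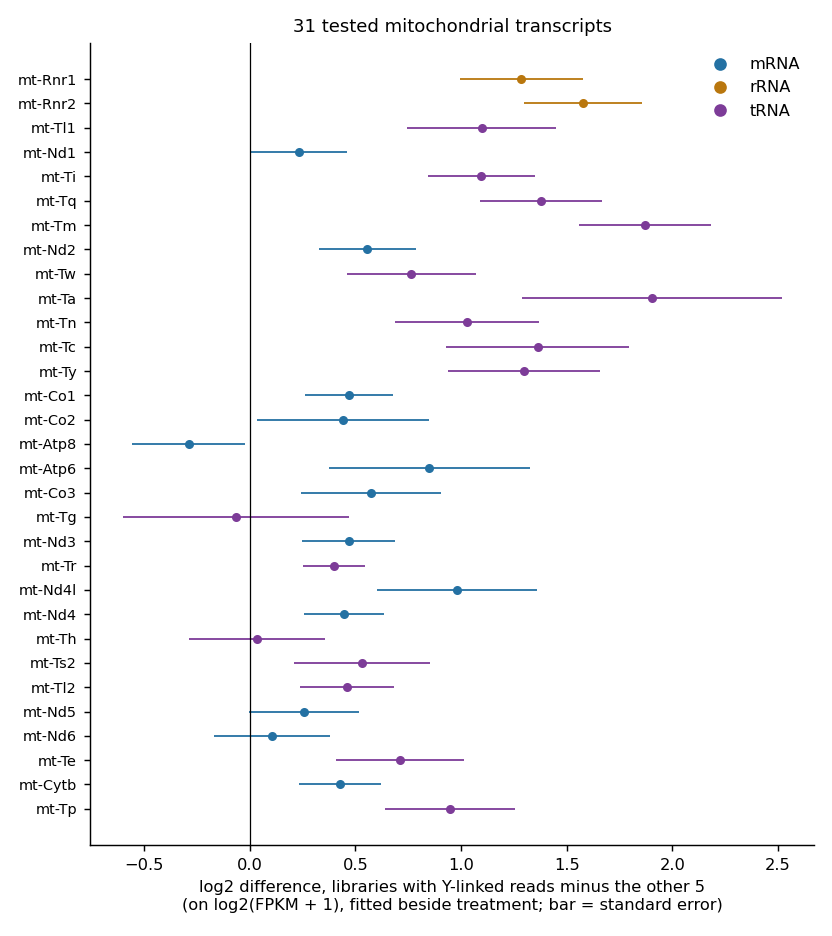
log2 difference of each of the 31 tested transcripts between the libraries with Y-linked reads and the other 5 (x axis), fitted beside treatment on log2(FPKM + 1), with its standard error as a bar, in genome order; colours mark messengers (blue), ribosomal RNAs (orange) and transfer RNAs (purple). 29 of 31 points lie above 0 (24 of 31 with quantile normalization), and the points of mt-Rnr2 at 1.58 and mt-Tm at 1.87 passed the threshold. The share of all genes above 0 was not counted.

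Some other measures moved with these libraries, and others did not. Of all genes tested, 20.0 percent were higher and 12.8 percent lower in both of them than in any of the other 5. The summed level of 6 macrophage markers, all found and none at 0 in every library, was 141.5 FPKM in MDL-800 2 and 173 FPKM in control 1, against 315 to 1416 FPKM in the other 5. That of 4 cholangiocyte markers was 2.03 FPKM in MDL-800 2 and 2.09 FPKM in control 1, against 2.80 to 4.99 FPKM in the other 5. These cholangiocyte levels are low, and Krt7 and Epcam of that list overlapped between the libraries. The hepatocyte sum was 55068 to 58405 FPKM in MDL-800 2 and control 1, against 54829 to 83895 FPKM in the other 5. Sums of the endothelial, stellate, lymphocyte, red cell and nuclear RNA lists also overlapped. Alas2, the heme synthesis enzyme of the red cell list, was at 50.1 FPKM in MDL-800 2 and 47.2 FPKM in control 1, against 3.44 to 10.995 FPKM in the other 5, while the sum of the 5 red cell markers was 179 and 198 FPKM in MDL-800 2 and control 1, against 126 to 807 FPKM in the other 5. The ratio of recovered reads to the authors' denominator was 1.28 and 1.25 in MDL-800 2 and control 1, against 0.995 to 1.24 in the other 5. The part of these measures in the mitochondrial levels was not tested. In whole liver, fewer cells of a type and less RNA per cell cannot be told apart. The treatment comparison in the other 5 libraries alone called 0 of 31 mitochondrial transcripts and 0 of all 11493 genes tested. An unadjusted limma p under 0.05 was found for 0 of 31, against 603 of all genes.

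The nuclear genes that make and process these transcripts did not pass the test either. Of 53 symbols listed for mitochondrial DNA and RNA machinery, 51 were found and 47 were tested. limma called 0 of them, and 0 percent of all genes. It marked 1 of the 47 at an unadjusted p under 0.05, against 4.85 percent of all genes. Of the 47, 31 were above 0 and 16 below 0, against 6173 of 11394 genes above 0. The median was 0.05, against 0.02 over all genes. Tfam, which packages mitochondrial DNA and starts its transcription, was at 0.21 (SE 0.11) and Polrmt, the mitochondrial RNA polymerase, at -0.14 (SE 0.13). Lrpprc, which stabilises mitochondrial messengers, was at 0.26 (SE 0.25), and Ppargc1a, a coactivator of mitochondrial biogenesis, at 0.25 (SE 0.18). Gabpa, a nuclear factor that drives genes of the respiratory chain, had the smallest p, at 0.31 (SE 0.12, limma adjusted p = 0.950), with 10.2 to 13.7 FPKM in MDL-800 livers and 8.65 to 10.01 FPKM in control livers. Next by p among those above 0 were Twnk, the mitochondrial DNA helicase, at 0.30 and Polg, the mitochondrial DNA polymerase, at 0.24. Among those below 0 were Pprc1, a coactivator related to Ppargc1a, at -0.33, Trmu, which modifies mitochondrial transfer RNAs, at -0.17, and Mtfmt, which formylates the initiator methionine transfer RNA, at -0.14.

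Nuclear subunits of the respiratory chain and ATP synthase were given beside the mitochondrial ones. All 8 listed (Ndufb8 and Ndufs1 of complex I, Sdha of complex II, which holds no mitochondrially encoded subunit, Uqcrc1 of complex III, Cox4i1 and Cox5a of complex IV, and Atp5b and Atp5a1 of ATP synthase) were above 0 in fold change, with a median of 0.26, against 6173 of 11394 genes above 0 and a median of 0.02. limma called 0 of 8. Atp5b, the catalytic beta subunit of ATP synthase, was at 317, 367 and 336 FPKM in MDL-800 livers and 304, 211, 303 and 242 FPKM in control livers. Its groups did not overlap, nor did those of 6.45 percent of all genes, and it was named after its values were seen. The 8 share their libraries with the mitochondrial messengers, whose median was -0.05, and the difference between the lists was not tested.

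The libraries held 17600066 to 19920469 recovered reads. The summed level of 8 hepatocyte markers, all found, was 56631 to 58405 FPKM in MDL-800 livers and 54829 to 83895 FPKM in control livers; these are defining genes of the labelled tissue. The 5 endothelial markers summed to 19.9 to 26.8 FPKM in MDL-800 livers and 7.95 to 30.4 FPKM in control livers, and the 5 red cell markers to 126 to 179 FPKM in MDL-800 livers and 139 to 807 FPKM in control livers.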

How the data were processed

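Liver RNA of 7 libraries (3 MDL-800, 4 control) was measured. The authors deposited FPKM values in 1 gene table that also lists coordinates and lengths. The submitters' processing notes name build mm9 and the tools TopHat2 2.0.14, Bowtie2 2.1.0 and Cufflinks 2.2.1. The counting tool and the handling of reads with several placements are not given in the sources used here. Coordinates in the table are those of GRCm38 and are printed as such.

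FPKM times length was a whole multiple of 1 step in each library (tolerance 0.01, met by 100 percent of values above 0), which gave whole reads, 17600066 to 19920469 per library. Reads without molecular identifiers are not independent molecules, so a limit set for 0 reads covers counting error alone. The unscaled log2(FPKM + 1) of genes with a mean of 1 FPKM or more was fitted with limma 3.58.1 (R 4.3.3; lmFit, then eBayes with trend; two-sided). p-values were adjusted by Benjamini-Hochberg, and the threshold was 0.05. Changes of low genes are understated on this scale. The fit was tested on simulated data. Ratios were tested by exact permutation. Nuclear copies were sought by scanning 50-base windows of each mitochondrial gene against all other GENCODE M21 transcripts, identical or with at most 2 mismatches. Alternatives were other pseudocounts, filters, scalings, denominators, weights, terms and left-out libraries.

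All 37 genes were counted. Fold changes were printed for both ribosomal RNAs, mt-Nd6, mt-Atp8, mt-Atp6, mt-Co1, the highest and lowest messengers and the 3 smallest p-values in each direction. mt-Nd1, Atp5b and the transcripts named beside the Y-linked term were chosen after their values were seen. The members and lists were chosen with earlier results of these data known. Same-numbered libraries did not deviate together (correlations of -0.587, -0.553 and 0.0565), so the numbers were not used as pairs.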

Additional observations from a re-analysis of the deposited data

Results flagged for a closer look

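Single libraries far from the rest of their group were sought in 49 groups, by the gap of the highest or lowest of the 4 control libraries against the range of the group (Dixon's test at its 95% critical value), and 2 were marked; chance marks about 1 in 20 groups. mt-Tm in control 1 was at 78.9 FPKM, against 14.2 to 21.6 FPKM in the other control libraries, a gap of 0.885 of the group's range. mt-Tt in control 4 was at 3.04 FPKM, which is 3 reads, against 0 in the other control libraries. Where the others are all at 0, any value above 0 is marked, so the chance rate does not apply to mt-Tt.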

How the results depend on the processing

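limma called 0 of the mitochondrial transcripts under each alternative run. Of all genes it called 0 to 1 when 1 library was left out: Gm34654 without MDL-800 1 and Cyp46a1 without control 1, both named after their values were seen. Genes with an unadjusted p under 0.05 numbered 553, against 1083 without a filter, 305 with a mean of at least 5 FPKM, 946 with array weights, 192 with the replicate block, and 274 (without MDL-800 3) to 948 (without control 1) with 1 library left out. The replicate block called 0 genes and 0 mitochondrial transcripts. mt-Rnr2 turned to -0.0023 with quantile normalization, -0.017 with median scaling, -0.26 with array weights, -0.13 with the Y-linked term and -0.050 with voom (chosen after seeing the data), and ran from -0.44 to 0.45 with 1 library left out. mt-Nd6 turned to 0.11 with quantile normalization and 0.12 with the replicate block, and ran from -0.17 to 0.12. The ranges were -0.62 to 0.13 for mt-Rnr1, -0.71 to 0.070 for mt-Atp6, -0.25 to 0.056 for mt-Co1 and -0.024 to 0.089 for the ratio of mt-Nd6 to mt-Nd5. The cause was not tested. Over all results and alternatives, 505 values were unchanged by rules that differ by type. Tested values kept direction and side of the threshold, and counts stayed within 1.5 times. Differences in read share moved by less than their pooled SD and could turn sign within it. For all mitochondrial reads this difference was -0.051 percentage points, and 0.159 without control 1. Of the other values, 8 counts moved by over 1.5 times, 21 tested values turned direction, 18 lost a call and 1 gained one. For the Y-linked term, mt-Rnr2 was at an adjusted p of 0.0785 and mt-Tm of 0.0619 with quantile normalization. The deposited values are FPKM and not counts, and the edgeR and TMM voom alternatives were not run. The voom run given above used the recovered reads, with library sizes from median ratios of reads and not from TMM. Transfer RNAs with under 40 reads and mt-Atp8 are limited by counting error.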
